A study of Mus musculus with 20 samples.

Results

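Tubulin modifying enzymes and microtubule regulators are the genes whose products write marks on tubulin, cut microtubules, fold tubulin dimers or bind the finished polymer. The set comprised 52 gene symbols chosen by name, of 22066 in the deposited table, and all 52 were present. They fell into 25 tubulin modifiers, 6 severing enzymes, 5 folding cofactors and 16 binding proteins. RNA was measured in testis of male NSG mice, an immunodeficient strain (NOD scid gamma) that accepts human cells, in 5 groups of 4 libraries. NC held normal controls. ALL held mice that had received 400000 patient-derived cells of human B-ALL, a leukaemia of immature B lymphocytes, through a tail vein, and no drug. Both of these groups were controls given saline, per the labels' protocols, which describe the mice as 6 weeks old. VCR held mice given vincristine sulfate, 0.5 mg/kg into the peritoneum weekly for 3 weeks from day 69, and its labels name no injected cells. Engrafted mice on the same schedule formed Low-VCR and High-VCR, named for low or high infiltration of peripheral blood by leukaemia cells. The material is labelled mixed testicular cells. Whether every library stems from its own mouse is not stated, so the p-values reflect spread among these samples, which may be technical.

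Microtubules are polymers of alpha- and beta-tubulin that carry many enzymatic marks on their exposed tails. Glutamate and glycine chains are added by the TTLL ligases and glutamate is removed by cytosolic carboxypeptidases, tyrosine is removed by vasohibins and put back by TTL, and a lysine inside the tube is acetylated by ATAT1 and deacetylated by HDAC6. In testis, these marks are found on the manchette that shapes the spermatid head and on the axoneme of the sperm tail, and Sertoli cells hold a dense microtubule array of their own. Vincristine binds tubulin dimers and blocks their assembly.

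The promoters of 4 members are shown because they hold motifs that bind factors used in male germ cells, a CRE site (bound by CREB and CREM) or an arm of the X box (bound by RFX factors, which serve ciliary genes). Sequences are from RefSeq on build GRCm38.p6, an older build than that of the counts. Each is the 250 bases upstream of an annotated start, 5′ to 3′ on the gene's strand, which is the plus strand for all 4. Capitals mark GTTGCC (an X box arm) or TGACGT (the core of the CRE), on either strand, and TGACGTCA is the full CRE, which holds TGACGT on both strands, overlapping. Ttll9 (chr2:152962235-152962484) and Agbl3 (chr6:34780182-34780431) encode a glutamylase and a deglutamylase, and both were lower in VCR than in NC. Clasp2 (chr9:113741223-113741472, the first of several annotated starts) was higher, and Tbcc (chr17:46890371-46890620) was lower.
Ttll9: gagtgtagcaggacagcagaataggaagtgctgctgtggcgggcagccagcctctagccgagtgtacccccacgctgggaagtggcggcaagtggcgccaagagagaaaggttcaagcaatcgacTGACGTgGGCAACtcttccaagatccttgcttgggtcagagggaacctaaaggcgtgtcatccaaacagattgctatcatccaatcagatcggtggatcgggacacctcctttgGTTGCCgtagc
Agbl3: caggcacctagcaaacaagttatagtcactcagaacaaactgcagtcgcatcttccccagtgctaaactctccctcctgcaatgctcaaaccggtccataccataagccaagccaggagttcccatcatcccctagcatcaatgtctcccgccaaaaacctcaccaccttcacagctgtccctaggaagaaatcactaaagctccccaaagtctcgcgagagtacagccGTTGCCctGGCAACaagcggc
Clasp2: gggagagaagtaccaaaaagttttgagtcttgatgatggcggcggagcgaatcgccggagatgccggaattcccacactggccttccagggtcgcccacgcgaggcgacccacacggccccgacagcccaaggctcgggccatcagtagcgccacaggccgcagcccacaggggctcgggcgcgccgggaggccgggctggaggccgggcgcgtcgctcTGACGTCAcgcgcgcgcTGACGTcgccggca
Tbcc: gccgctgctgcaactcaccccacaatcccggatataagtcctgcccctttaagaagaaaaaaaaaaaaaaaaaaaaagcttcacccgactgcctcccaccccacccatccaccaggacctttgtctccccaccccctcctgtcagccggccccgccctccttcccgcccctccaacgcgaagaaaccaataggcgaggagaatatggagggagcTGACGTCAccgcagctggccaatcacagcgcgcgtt
The table held promoters for 42 of the 52 members. In windows of 300 bases (250 before to 50 after a start), GTTGCC was present in 9 of 24 members that were lower in VCR than in NC (37.5%), in 2 of 10 that were higher (20%) and in 14.1% of all 27025 genes with a promoter. It was also present in 2 of 6 members that were tested and not called (33.3%), and in 13 of the 42 (31%). TGACGT was present in 4 of the 24 (16.7%), in 2 of the 10 (20%) and in 8.37% of all genes, and TGACGTCA in 1 of the 24, 1 of the 10 and 2.03% of all genes. Of the 6 not called, 1 held TGACGT (16.7%) and 0 held TGACGTCA. These are matches of letters, chosen with earlier results known, and binding of any factor was not measured here.

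Depth, in mega counts (M) per library, was 9.43 to 15 in NC, 10.3 to 11.8 in ALL, 10.6 to 14 in VCR, 13 to 13.9 in Low-VCR and 13.1 to 16.4 in High-VCR. Mitochondrially encoded genes took 1.78% to 2.6% of counts in the untreated libraries and 4.69% to 11.9% in the treated ones. Library VCR 1 stood apart from the other VCR libraries: the summed level of 8 round spermatid markers was 23.6 CPM (the CPM unit scales counts to an equal, TMM-adjusted total in each library) there, against 265 to 549 in VCR 2 to 4 and 2100 to 2280 in NC. High-VCR 2 stood apart in its own group, with 8 spermatocyte markers at a summed 6170 CPM. They were at 1760, 3350 and 2520 CPM in High-VCR 1, 3 and 4. Of the 52 members, 49 passed edgeR's filter on low counts and were tested together with 16534 genes in all. Changes are given as log2 fold change ± standard error from edgeR's quasi-likelihood test with n = 4 libraries a group, and p-values were adjusted by Benjamini-Hochberg over every gene tested. "Rose" and "fell" are used for genes with an adjusted p under 0.05. CPM values are not divided by gene length, so levels of different genes are not compared.

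In VCR relative to NC, 29 of 49 tested members fell (59.2%, where 35.6% of all tested genes fell) and 12 rose (24.5%, where 42.1% of all genes rose). In all, 41 members were called, beside 77.7% of all genes, a background so high that the count as a whole is no result about the members. The median log2 fold change was -1.11 over the members and 0.10 over all genes. By class, 19 of 25 modifiers fell and 3 rose, 3 of 5 tested severing enzymes fell and none rose, 1 of 5 folding cofactors fell and 3 rose, and 6 of 14 tested binding proteins fell and 6 rose. Without VCR 1, 28 members fell, where 32.6% of all genes did, and 11 rose, where 40.1% did. With scaling to library size alone, the median of all genes moved by 0.39, and 8309 of 12789 called genes were higher, beside 6960 of 12851 in the TMM fit.

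In High-VCR relative to ALL, 24 members fell (49%, where 30.5% of all genes fell) and 11 rose (22.4%, where 42.4% of all genes rose), with a median of -0.73 beside 0.16 over all genes. The 35 called members stood beside 72.9% of all genes. In Low-VCR relative to ALL, 13 fell (26.5%, where 15.2% of all genes fell) and 9 rose (18.4%, where 36.4% of all genes rose), with a median of -0.59 beside 0.08. The 22 called stood beside 51.6% of all genes. These comparisons share the ALL libraries, so they are not independent of each other. The Low-VCR count of falls depended on single libraries and on scaling: it was 26 without VCR 1 (where 25.8% of all genes fell), 8 without ALL 1 (10.3%), 22 with DESeq2 size factors (27.4%) and 6 with library size alone (5.26%). The falls lost with library size alone were those of Vash1, Ttll9, Agtpbp1, Agbl5, Katnal1, Clasp1 and Map4 (adjusted p 0.059 to 0.219). Those of Ttll8, Ttll9 and Agbl5 were lost with limma-voom (0.0525, 0.0914 and 0.0876), and those of Agbl5 and Katnal1 without the low-count filter (0.0507 and 0.0552). Of the members that were not called, 16 of 27 in Low-VCR, 6 of 14 in High-VCR and 5 of 8 in VCR relative to NC were called under at least 1 alternative. The matching share of all uncalled genes was not determined, so these counts are no result about the members. Calls over all genes moved as well, in Low-VCR from 51.6% in the main fit to 68.3% with only the groups compared. Called genes that were higher numbered 6016 of 8527 in Low-VCR with TMM, 7239 of 8109 with library size alone and 5080 of 9605 with DESeq2 size factors. In High-VCR they numbered 7015 of 12054 with TMM and 8137 of 11861 with library size alone.

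Markers of the cells of the testis moved in the same comparisons, to different extents. In VCR relative to NC, 8 of 8 round spermatid markers fell (median log2 fold change -3.87), as did 8 of 8 of elongating spermatids (-2.25) and 7 of 8 of spermatocytes (-1.75). In High-VCR relative to ALL, 8 of 8 round spermatid (-3.38), 2 of 8 elongating spermatid (-1.19) and 4 of 8 spermatocyte markers (-1.22) fell. In Low-VCR relative to ALL, 4 of 8 round spermatid markers fell (-1.26), and 0 of 8 elongating spermatid (-0.82) and 0 of 8 spermatocyte markers (-0.97) passed in edgeR's test. The 8 markers of spermatogonia did not fall as a list. In VCR 50% of them rose and 12.5% fell, in Low-VCR 62.5% and 12.5%, and in High-VCR 50% and 0%. Their summed level was 91.2 to 99.6 CPM in NC and 198 to 242 CPM in VCR. Markers of several somatic cell types rose together. In VCR they were 8 of 8 for Sertoli cells (1.92), 7 of 7 for Leydig cells (2.82), 7 of 7 for macrophages (2.89), 6 of 7 for endothelial cells (2.07) and 5 of 6 for peritubular myoid cells (1.2). In Low-VCR 8 of 8, 7 of 7, 6 of 7, 5 of 7 and 5 of 6 of the same lists rose, and in High-VCR 8 of 8, 7 of 7, 7 of 7, 6 of 7 and 5 of 6. In each of these comparisons, the peritubular myoid marker that did not rise fell (16.7% of that list). Summed round spermatid markers were at 2000 to 2280 CPM in the untreated libraries, 683 to 1160 in Low-VCR and 282 to 677 in High-VCR. Summed Sertoli markers were at 294 to 339 CPM in the untreated libraries, 1100 to 1710 in VCR, 876 to 1140 in Low-VCR and 917 to 1470 in High-VCR. Of 4 tested markers of B lineage and leukocytes, 50% rose and 25% fell in VCR and in High-VCR, and 25% rose and 0% fell in Low-VCR. No marker of any list was at 0 in all libraries of a group. In this bulk RNA, fewer cells of a type and less RNA per cell cannot be told apart, and the part of cell composition in the changes of the members was not tested.

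**Figure D1:**
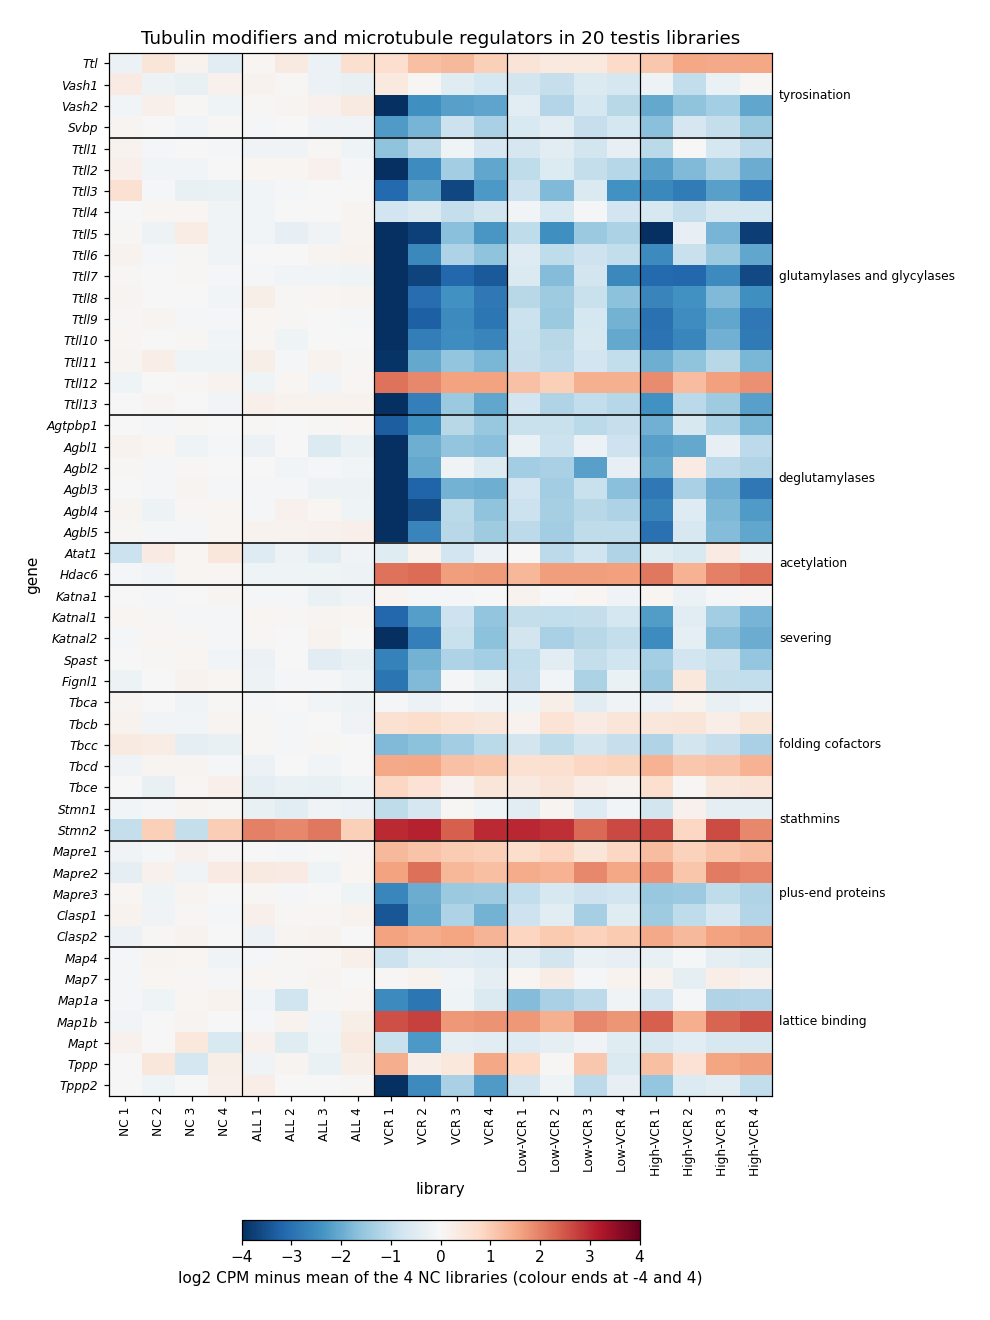
Log2 CPM of the 49 tested members (rows, by role) in the 20 libraries (columns), each minus the mean of the 4 NC libraries; colour ends at -4 and 4. Most ligases and deglutamylases are blue in the treated libraries and darkest in VCR 1, while Ttll12, Hdac6, Clasp2 and Map1b are red in all 12 treated libraries.

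The tyrosination enzymes moved both ways. Ttl, the ligase that returns tyrosine to alpha-tubulin, was at 1.46, 2.48, 1.94 and 1.28 CPM in NC and 1.85, 2.23, 1.46 and 2.76 CPM in ALL. It was at 2.82, 4.1, 4.33 and 3.42 CPM in VCR, 2.48, 2.3, 2.3 and 2.98 CPM in Low-VCR and 3.73, 5.19, 5.13 and 5.25 CPM in High-VCR. All VCR libraries lay above all NC libraries, and all High-VCR libraries above all ALL libraries, while Low-VCR overlapped ALL. Ttl rose 2.06-fold in VCR (1.04 ± 0.24, adjusted p 0.000709) and 2.32-fold in High-VCR (1.22 ± 0.23, adjusted p 0.000171), and did not pass in Low-VCR (0.28 ± 0.24, adjusted p 0.31). Its counts were low, at a few CPM in every group.

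Vash2, a vasohibin that removes the tyrosine, moved the other way. It was at 36.5, 45.9, 41.1 and 35.1 CPM in NC and 41.1, 42.7, 44.9 and 50.2 CPM in ALL. It was at 2.36, 7.22, 8.65 and 9.05 CPM in VCR, 28.8, 17.6, 24 and 18.3 CPM in Low-VCR and 9.49, 13, 15.2 and 9.27 CPM in High-VCR. No treated library reached the untreated range, and the Low-VCR libraries lay above those of the other treated groups. Vash2 fell 5.8-fold in VCR (-2.54 ± 0.30, adjusted p 8.26e-07), 2.02-fold in Low-VCR (-1.01 ± 0.28, adjusted p 0.00604) and 3.81-fold in High-VCR (-1.93 ± 0.29, adjusted p 1.35e-05). Svbp, the small partner that vasohibins need, was at 71.6 to 83.1 CPM in NC and 15.9 to 42.4 CPM in VCR. It fell in VCR (-1.48 ± 0.25, adjusted p 3.8e-05) and High-VCR (-1.06 ± 0.24, adjusted p 0.000874) and stood at the threshold in Low-VCR (-0.59 ± 0.24, adjusted p 0.0502). Vash1, the other vasohibin, fell in Low-VCR (-0.65 ± 0.24, adjusted p 0.0308), while its values were -0.15 ± 0.24, adjusted p 0.572 in VCR and -0.24 ± 0.24, adjusted p 0.358 in High-VCR. Its change in Low-VCR minus that in VCR was -0.50 ± 0.33, adjusted p 0.347. The Vash1 call was lost without ALL 1 (-0.57, adjusted p 0.0812) or ALL 2 (-0.60, adjusted p 0.0689). It was also lost on leaving out Low-VCR 1, 2 or 4 (adjusted p 0.0546, 0.0644 and 0.0514), with upper-quartile scaling (0.0509) and with library size alone (-0.39, adjusted p 0.219). The ratio of Vash1 to Vash2 counts within a library was 0.246 to 0.45 in NC, 0.211 to 0.349 in ALL, 0.882 to 7.19 in VCR, 0.273 to 0.444 in Low-VCR and 0.505 to 1.44 in High-VCR.

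The 13 TTLL genes were listed together as ligases that add glutamate or glycine, although the activity of Ttll12 on tubulin is not settled. Of the 13, 12 fell in VCR relative to NC (92.3%, where 35.6% of all genes fell) and 1, Ttll12, rose. Falls ranged from -0.76 (Ttll4) to -3.78 (Ttll7) on the log2 scale. Ttll3 and Ttll8 start glycine chains on tubulin and Ttll10 lengthens them. Ttll3 was at 153.9, 98, 83 and 83.4 CPM in NC and 92.7, 96.4, 102.3 and 101.4 CPM in ALL. It was at 11.7, 22.7, 8.06 and 20.5 CPM in VCR, 55.8, 29.7, 68.3 and 18.7 CPM in Low-VCR and 16.8, 14.4, 22.5 and 14.9 CPM in High-VCR. The 12 treated libraries all lay below the 8 untreated ones, and the Low-VCR libraries were uneven, with replicates 2 and 4 near the other treated groups. Ttll3 fell 6.64-fold in VCR (-2.73 ± 0.38, adjusted p 5.41e-06), 2.28-fold in Low-VCR (-1.19 ± 0.36, adjusted p 0.0107) and 5.73-fold in High-VCR (-2.52 ± 0.37, adjusted p 1.36e-05). Its exons overlap those of Arpc4 on the same strand in the GRCm38 annotation, so reads of the pair may have been divided by the counting.

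Ttll8 was at 366, 345, 335 and 318 CPM in NC and 399, 350, 362 and 369 CPM in ALL. It was at 6.32, 41.2, 63.9 and 47.3 CPM in VCR, 158.9, 126.7, 185.1 and 108 CPM in Low-VCR and 54.4, 63.6, 99.2 and 62.6 CPM in High-VCR. No treated library overlapped the untreated ones, and the Low-VCR libraries were above all VCR and High-VCR libraries. It fell in VCR (-3.10 ± 0.44, adjusted p 6.83e-06), Low-VCR (-1.35 ± 0.41, adjusted p 0.0112; -1.39, adjusted p 0.0525 with limma-voom) and High-VCR (-2.40 ± 0.42, adjusted p 8.25e-05). Ttll10, the glycine elongase, went from 640 to 730 CPM in NC to 11.4 to 121.8 CPM in VCR, a fall of 8.01-fold (-3.0 ± 0.49, adjusted p 3.25e-05). It also fell in High-VCR (-2.49 ± 0.48, adjusted p 0.00019) and missed the threshold in Low-VCR (-1.06 ± 0.46, adjusted p 0.0607). The 3 glycylases therefore all fell in VCR and in High-VCR.

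The glutamylases fell in VCR without an exception among Ttll1, Ttll2, Ttll4, Ttll5, Ttll6, Ttll7, Ttll9, Ttll11 and Ttll13. Ttll9, whose promoter is printed above and whose loss in mouse impairs sperm motility, was at 325, 340, 299 and 295 CPM in NC and 328, 325, 310 and 298 CPM in ALL. It was at 4.65, 32.4, 54.1 and 42.7 CPM in VCR, 171.9, 113.4, 191.8 and 84.2 CPM in Low-VCR and 39.8, 55.5, 75.1 and 43 CPM in High-VCR. The treated libraries all lay below the untreated ones, with VCR 1 lowest. Ttll9 fell 9.4-fold in VCR (-3.23 ± 0.48, adjusted p 1.18e-05), 2.25-fold in Low-VCR (-1.17 ± 0.45, adjusted p 0.0366) and 5.91-fold in High-VCR (-2.56 ± 0.47, adjusted p 0.000109). The Low-VCR call was lost without any 1 of the ALL libraries (adjusted p 0.0655, 0.0633, 0.0591 and 0.0556 without ALL 1 to 4) and without Low-VCR 2 or 4 (0.0849 and 0.0997).

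Ttll11, which lengthens glutamate chains, was at 43.4, 48.5, 36 and 35.6 CPM in NC and 48, 39.6, 45 and 41.5 CPM in ALL. It was at 2.59, 9.65, 13.4 and 11.3 CPM in VCR, 21.4, 19.7, 23.8 and 20.3 CPM in Low-VCR and 10.4, 13.4, 18.6 and 11.3 CPM in High-VCR. Groups did not overlap between treated and untreated, and the 4 Low-VCR libraries lay close together. It fell in VCR (-2.14 ± 0.32, adjusted p 1.11e-05), Low-VCR (-1.03 ± 0.30, adjusted p 0.00951) and High-VCR (-1.70 ± 0.31, adjusted p 0.000113). Ttll7, which adds glutamate to beta-tubulin, had the largest fold among the members: 169 to 182.2 CPM in NC against 0.533 to 20.1 CPM in VCR, 13.7-fold lower (-3.78 ± 0.63, adjusted p 3.76e-05). It was also lower in High-VCR (-2.93 ± 0.60, adjusted p 0.000349) and did not pass in Low-VCR (-1.08 ± 0.56, adjusted p 0.111), where its 4 libraries ranged from 29.6 to 118 CPM. VCR 1 held 0.533 CPM of Ttll7, against 13.5 to 20.1 in the other VCR libraries.

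The remaining glutamylases fell by less or varied more. Ttll2 (-2.31 ± 0.50), Ttll6 (-2.08 ± 0.51) and Ttll13 (-2.40 ± 0.52) fell in VCR, and each also fell in High-VCR (adjusted p 0.00278, 0.00661 and 0.00438). Ttll2 shares same-strand exons with Gm49630. Ttll1, the catalytic subunit of a polyglutamylase complex, and Ttll4 fell in VCR (-0.79 ± 0.25 and -0.76 ± 0.15), calls that were lost with library size alone (adjusted p 0.0934 and 0.0575). Ttll5 had 0 counts in VCR 1, where 3 counts would be 0.229 CPM, and 21, 89.7 and 56.4 CPM in VCR 2 to 4, against 244 to 348 CPM in NC. Its fall (-2.77 ± 0.98, adjusted p 0.0164) was lost when only the NC and VCR libraries were fitted (-2.81, adjusted p 0.071), and without VCR 3 the log2 fold change was -3.47, adjusted p 0.00909. Ttll5 did not pass in High-VCR relative to ALL, where its treated libraries held 17.8, 227, 78.2 and 20.5 CPM. Without High-VCR 2 it had -2.75, adjusted p 0.0204 there.

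Ttll12, a divergent family member whose activity on tubulin is not settled, was the only TTLL gene that rose. It was at 14.6, 16.3, 17.2 and 18.3 CPM in NC and 14.6, 17.3, 15.2 and 17.3 CPM in ALL. It was at 74.2, 62.4, 50.2 and 50.4 CPM in VCR, 37.1, 32.3, 44.5 and 44.6 CPM in Low-VCR and 62.1, 39.3, 51.8 and 59.2 CPM in High-VCR. Every treated library was above every untreated one, and VCR 1 was the highest. Ttll12 rose 3.57-fold in VCR (1.84 ± 0.16, adjusted p 5.7e-08), 2.46-fold in Low-VCR (1.30 ± 0.16, adjusted p 4.86e-06) and 3.29-fold in High-VCR (1.72 ± 0.16, adjusted p 1.14e-07).

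Of the 6 carboxypeptidases that remove glutamate, 5 fell in VCR (83.3%, where 35.6% of all genes fell and 77.7% were called) and none rose. Agbl3, which shortens glutamate chains and has an inverted pair of GTTGCC sites close to its start, was at 104.2, 101.7, 112.2 and 101.9 CPM in NC and 99.9, 100.2, 90.7 and 92 CPM in ALL. It was at 4.19, 11.4, 28.1 and 27 CPM in VCR, 61.1, 40.2, 56.7 and 32.7 CPM in Low-VCR and 14.5, 42.6, 27.9 and 14.5 CPM in High-VCR. The treated libraries were all below the untreated ones. Agbl3 fell 5.93-fold in VCR (-2.57 ± 0.45, adjusted p 6.54e-05) and 3.85-fold in High-VCR (-1.94 ± 0.44, adjusted p 0.000802), and its value in Low-VCR was -1.0 ± 0.43, adjusted p 0.0573.

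Agtpbp1, the deglutamylase lost in the Purkinje cell degeneration mouse, whose males are infertile, was at 328, 304, 336 and 331 CPM in NC and 333, 330, 337 and 340 CPM in ALL. It was at 32.7, 59.6, 149 and 112.2 CPM in VCR, 175.6, 176.4, 152.5 and 172.1 CPM in Low-VCR and 85.2, 208, 135.4 and 90.8 CPM in High-VCR. Treated and untreated libraries did not overlap, and Low-VCR held the narrowest range of the treated groups. It fell in VCR (-1.88 ± 0.35, adjusted p 0.00011), Low-VCR (-0.99 ± 0.34, adjusted p 0.0226) and High-VCR (-1.37 ± 0.34, adjusted p 0.00184), and the Low-VCR call was lost without Low-VCR 3 (-0.94, adjusted p 0.0536). Agbl5, which removes the branch-point glutamate, went from 612 to 688 CPM in NC to 34.1 to 301 CPM in VCR (-1.93 ± 0.50, adjusted p 0.00207). It fell in High-VCR (-1.78 ± 0.50, adjusted p 0.00424) and in Low-VCR (-1.28 ± 0.49, adjusted p 0.0377), where the call was lost on leaving out any 1 of the 8 libraries compared (adjusted p 0.059 to 0.0893). Agbl5 overlaps Ost4 on the opposite strand.

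Agbl1 and Agbl4 also fell in VCR (-2.10 ± 0.43 and -2.17 ± 0.67) and, less firmly, in High-VCR. The Agbl1 call in High-VCR (-0.97 ± 0.41, adjusted p 0.0426) was lost without any 1 of the NC libraries, without ALL 1, 2 or 4, and without High-VCR 1, 2 or 4 (adjusted p 0.0504 to 0.124), and with library size alone (0.14). The Agbl4 call (-1.58 ± 0.65, adjusted p 0.0372) was lost without any ALL library or High-VCR 1, 3 or 4 (adjusted p 0.0505 to 0.101) and with library size alone (0.0645), and without High-VCR 2 it became -2.23, adjusted p 0.0077. In VCR, Agbl4 had -2.86, adjusted p 0.00157 without VCR 3 and missed the threshold with only NC and VCR fitted (adjusted p 0.0526). Agbl2 was uneven, at 1.6, 11, 42.2 and 31.3 CPM in VCR against 43.4 to 47.6 CPM in NC, and did not pass (-1.10 ± 0.62, adjusted p 0.116).

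The pair that acetylates and deacetylates alpha-tubulin differed in what was detectable. Hdac6 was at 78, 74.5, 85.3 and 84.4 CPM in NC and 70.8, 71.3, 71.4 and 69.3 CPM in ALL. It was at 361, 378, 256 and 261 CPM in VCR, 202, 256, 254 and 253 CPM in Low-VCR and 351, 212, 323 and 364 CPM in High-VCR. The lowest treated library, at 202 CPM, was above the highest untreated one, at 85.3. Hdac6 rose 3.9-fold in VCR (1.96 ± 0.17, adjusted p 5.55e-08), 3.41-fold in Low-VCR (1.77 ± 0.17, adjusted p 1.07e-06) and 4.42-fold in High-VCR (2.14 ± 0.17, adjusted p 5.49e-08). Atat1, the acetyltransferase, was at 10.4 to 26.2 CPM in NC and 11.2 to 20.7 CPM in VCR, groups that overlapped, and passed in none of the comparisons (-0.39 ± 0.30, adjusted p 0.234 in VCR).

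Severing enzymes cut microtubules along their length. Spast, which encodes spastin, was at 88.2, 90.2, 93 and 81.8 CPM in NC and 74.4, 87.5, 65.3 and 72.1 CPM in ALL. It was at 13.3, 23.8, 37.2 and 34.1 CPM in VCR, 44.8, 64.1, 45.1 and 50.7 CPM in Low-VCR and 34.5, 52.1, 47.3 and 30.4 CPM in High-VCR. All treated libraries were below the lowest untreated library, at 65.3 CPM. Spast fell 3.25-fold in VCR (-1.70 ± 0.25, adjusted p 8.63e-06) and 1.82-fold in High-VCR (-0.87 ± 0.24, adjusted p 0.00404), and its value in Low-VCR was -0.55 ± 0.24, adjusted p 0.0638.

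Katnal1, a katanin-like gene that mouse Sertoli cells need for sperm release, was at 135, 130.1, 122.4 and 120.6 CPM in NC and 133, 130.5, 136.3 and 134.9 CPM in ALL. It was at 14.2, 27.6, 71.6 and 42.7 CPM in VCR, 65.6, 63.8, 65.1 and 77.2 CPM in Low-VCR and 26.8, 95.4, 48.3 and 35.2 CPM in High-VCR. No treated library reached the untreated range, though High-VCR 2 came closest. Katnal1 fell in VCR (-1.70 ± 0.38, adjusted p 0.000695) and High-VCR (-1.38 ± 0.38, adjusted p 0.00387). Its call in Low-VCR (-0.98 ± 0.38, adjusted p 0.0389) was lost on leaving out any 1 of the 8 libraries compared (adjusted p 0.0547 to 0.0833). Katnal2, which acts at the spermatid manchette in mouse, fell in VCR (-1.93 ± 0.54, adjusted p 0.00367) and in High-VCR (-1.43 ± 0.53, adjusted p 0.0229), a call lost on leaving out High-VCR 1, 3 or 4 (adjusted p 0.0717, 0.0551 and 0.0659). Without VCR 3, Katnal2 had -2.56, adjusted p 0.000481 in VCR, and without High-VCR 2 it had -2.04, adjusted p 0.00273 in High-VCR. Katna1, the catalytic katanin subunit, was at 40.9 to 47 CPM in NC and 42.1 to 46.9 CPM in VCR, with a log2 fold change of 0.01 ± 0.09, adjusted p 0.892. Its standard error of 0.09 was the smallest in the set, and with library size alone it would be called higher (0.41, adjusted p 0.00377). Fignl1 did not pass (-0.86 ± 0.48, adjusted p 0.108), and Fign stayed under 0.66 CPM in every library and was not tested.

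The 5 tubulin folding cofactors work on the dimer itself: Tbcb and Tbce on alpha-tubulin, Tbca and Tbcd on beta-tubulin, with Tbcc joining the complex that releases the dimer. Tbcd was at 32.4, 38.5, 38.7 and 33.7 CPM in NC and 30.1, 35.1, 33.3 and 36.4 CPM in ALL. It was at 103.005, 103.7, 80.9 and 77.8 CPM in VCR, 54.8, 55.7, 63.4 and 66.8 CPM in Low-VCR and 94.2, 74.9, 78.4 and 93.8 CPM in High-VCR. Each treated group lay above all untreated libraries, Low-VCR least. Tbcd rose 2.55-fold in VCR (1.35 ± 0.13, adjusted p 7.9e-08), 1.78-fold in Low-VCR (0.83 ± 0.12, adjusted p 2.76e-05) and 2.53-fold in High-VCR (1.34 ± 0.13, adjusted p 1.04e-07).

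Tbcc moved the opposite way. It was at 114, 108.7, 68.3 and 71.3 CPM in NC and 90.5, 83.6, 91.7 and 86.4 CPM in ALL. It was at 25.7, 27.9, 33.4 and 41.4 CPM in VCR, 53.3, 43.4, 52.4 and 46.9 CPM in Low-VCR and 38, 53.1, 46.1 and 35.9 CPM in High-VCR. The treated libraries did not reach the untreated range, which in NC split into a higher and a lower pair. Tbcc fell 2.82-fold in VCR (-1.5 ± 0.18, adjusted p 1.46e-06), 1.8-fold in Low-VCR (-0.85 ± 0.18, adjusted p 0.000903) and 2.04-fold in High-VCR (-1.03 ± 0.18, adjusted p 8.35e-05). Tbcb and Tbce rose by less, 0.58 ± 0.11 and 0.53 ± 0.15 in VCR, and also rose in both engrafted groups. The Tbcb call was lost with DESeq2 size factors in Low-VCR (adjusted p 0.061) and with only the groups compared in High-VCR (0.121). Tbca did not pass (-0.12 ± 0.13, adjusted p 0.41 in VCR), and with library size alone its sign turned and it was called higher (0.28, adjusted p 0.0381). Tbcb, Tbcd and Tbce each overlap another listed gene on the opposite strand (Polr2i, B3gntl1 and B3galnt2).

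**Figure D2:**
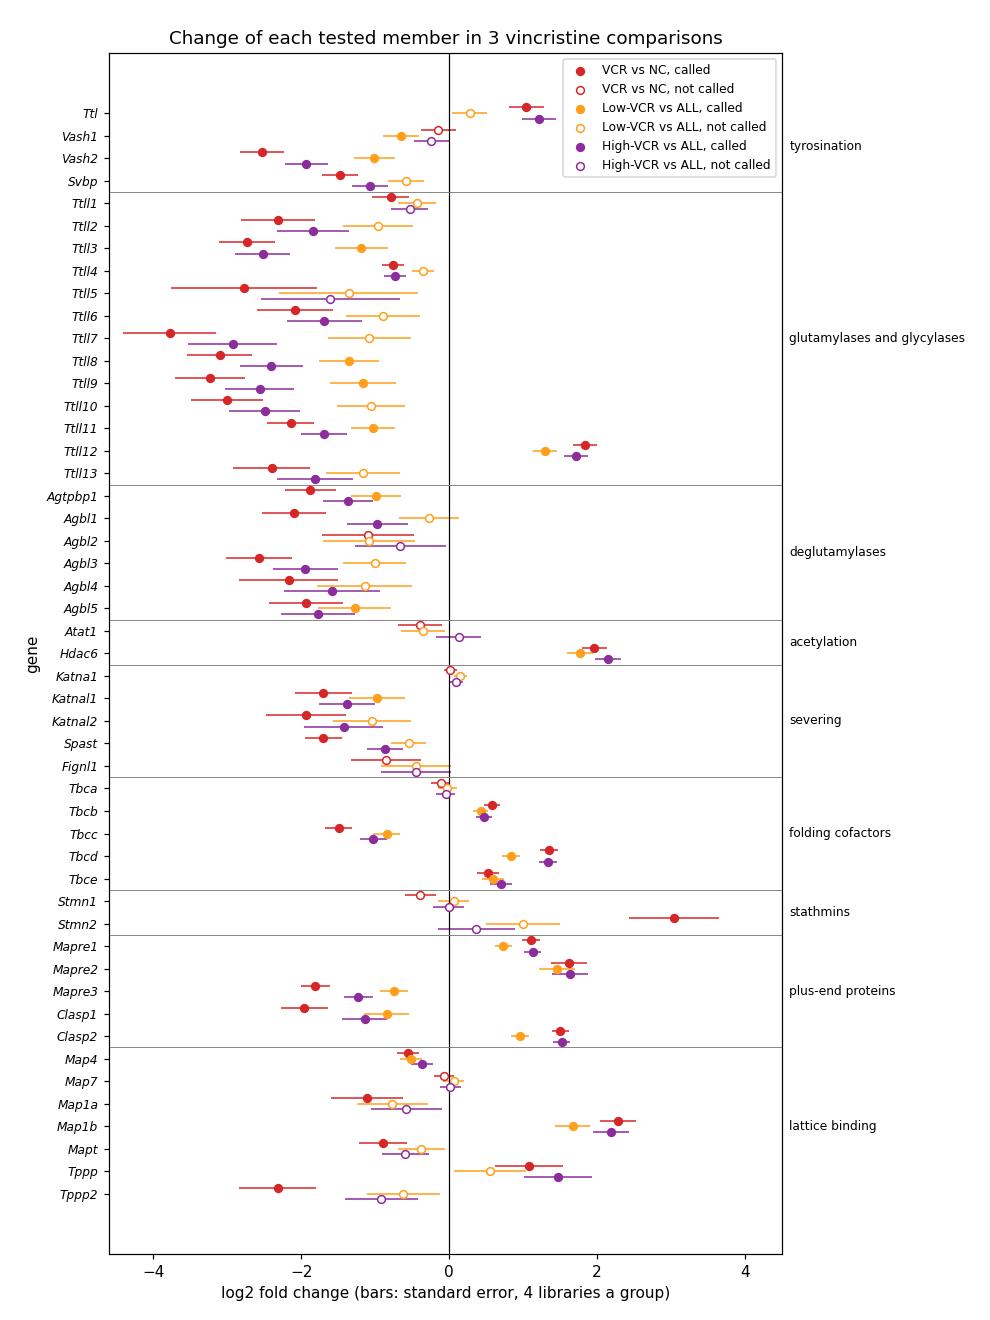
Log2 fold change (x axis) of the 49 tested members (y axis, by role) in VCR relative to NC, Low-VCR relative to ALL and High-VCR relative to ALL; bars are standard errors, 4 libraries a group, and filled points passed an adjusted p under 0.05. TTLL ligases other than Ttll12 and all deglutamylases lie left of 0, and Ttl, Ttll12, Hdac6, Tbcd, Clasp2, Mapre1, Mapre2 and Map1b lie right of it.

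Among proteins that ride the growing plus end, related genes moved apart. Clasp2, whose product stabilises plus ends and whose promoter holds a full CRE, was at 16.8, 20.5, 21.8 and 20 CPM in NC and 16.8, 21.1, 21.9 and 20.1 CPM in ALL. It was at 60, 55.6, 58.6 and 50.2 CPM in VCR, 35.4, 40.7, 37.7 and 41.1 CPM in Low-VCR and 56.3, 48.2, 59.9 and 64.6 CPM in High-VCR. The groups formed non-overlapping steps, untreated below Low-VCR and Low-VCR below both other treated groups. Clasp2 rose 2.84-fold in VCR (1.5 ± 0.12, adjusted p 3.46e-08), 1.94-fold in Low-VCR (0.96 ± 0.12, adjusted p 3.82e-06) and 2.87-fold in High-VCR (1.52 ± 0.12, adjusted p 5.49e-08). Its close relative Clasp1 fell, from 143.8 to 174.8 CPM in NC to 14.5 to 67.2 CPM in VCR (-1.96 ± 0.31, adjusted p 2.54e-05), and it also fell in High-VCR (-1.14 ± 0.31, adjusted p 0.003) and Low-VCR (-0.85 ± 0.30, adjusted p 0.0276). The Low-VCR call of Clasp1 was lost without ALL 1 or 4 (adjusted p 0.057 and 0.0507) and on leaving out Low-VCR 1 or 3 (0.0588 and 0.0838). The ratio of Clasp2 to Clasp1 counts within a library was 0.0962 to 0.142 in NC, 0.0932 to 0.134 in ALL, 0.872 to 4.15 in VCR, 0.358 to 0.6 in Low-VCR and 0.604 to 0.954 in High-VCR. Being taken within a library, that ratio does not depend on scaling.

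The end-binding proteins showed the same split. Mapre1, which encodes EB1, was at 54.7, 57.5, 67.3 and 62.3 CPM in NC and 60.2, 57.5, 60.2 and 62.8 CPM in ALL. It was at 149.5, 133.1, 122.3 and 115.9 CPM in VCR, 97.4, 109.2, 84.6 and 107.7 CPM in Low-VCR and 140.8, 113.2, 129.9 and 141.8 CPM in High-VCR. Treated libraries all exceeded the untreated ones. Mapre1 rose in VCR (1.11 ± 0.12, adjusted p 2.47e-07), Low-VCR (0.73 ± 0.12, adjusted p 5.14e-05) and High-VCR (1.13 ± 0.12, adjusted p 2.49e-07), and so did Mapre2 (EB2), with 1.62 ± 0.24, 1.45 ± 0.24 and 1.63 ± 0.24.

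Mapre3, which encodes EB3, was at 99.4, 82.6, 102.3 and 92.4 CPM in NC and 97.4, 88.2, 93.8 and 83.6 CPM in ALL. It was at 15.3, 23.5, 33.3 and 35.1 CPM in VCR, 47.3, 60.8, 52.5 and 55.7 CPM in Low-VCR and 33.1, 34.6, 46.4 and 40.9 CPM in High-VCR. It was lower in every treated library than in any untreated one, and Low-VCR lay above both other treated groups. Mapre3 fell 3.51-fold in VCR (-1.81 ± 0.20, adjusted p 3.37e-07), 1.68-fold in Low-VCR (-0.75 ± 0.19, adjusted p 0.00358) and 2.34-fold in High-VCR (-1.23 ± 0.19, adjusted p 2.32e-05). Within a library, Mapre1 counts were 0.55 to 0.696 of Mapre3 counts in NC and 0.618 to 0.751 in ALL. That ratio was 3.31 to 9.76 in VCR, 1.61 to 2.06 in Low-VCR and 2.8 to 4.25 in High-VCR.

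**Figure D3:**
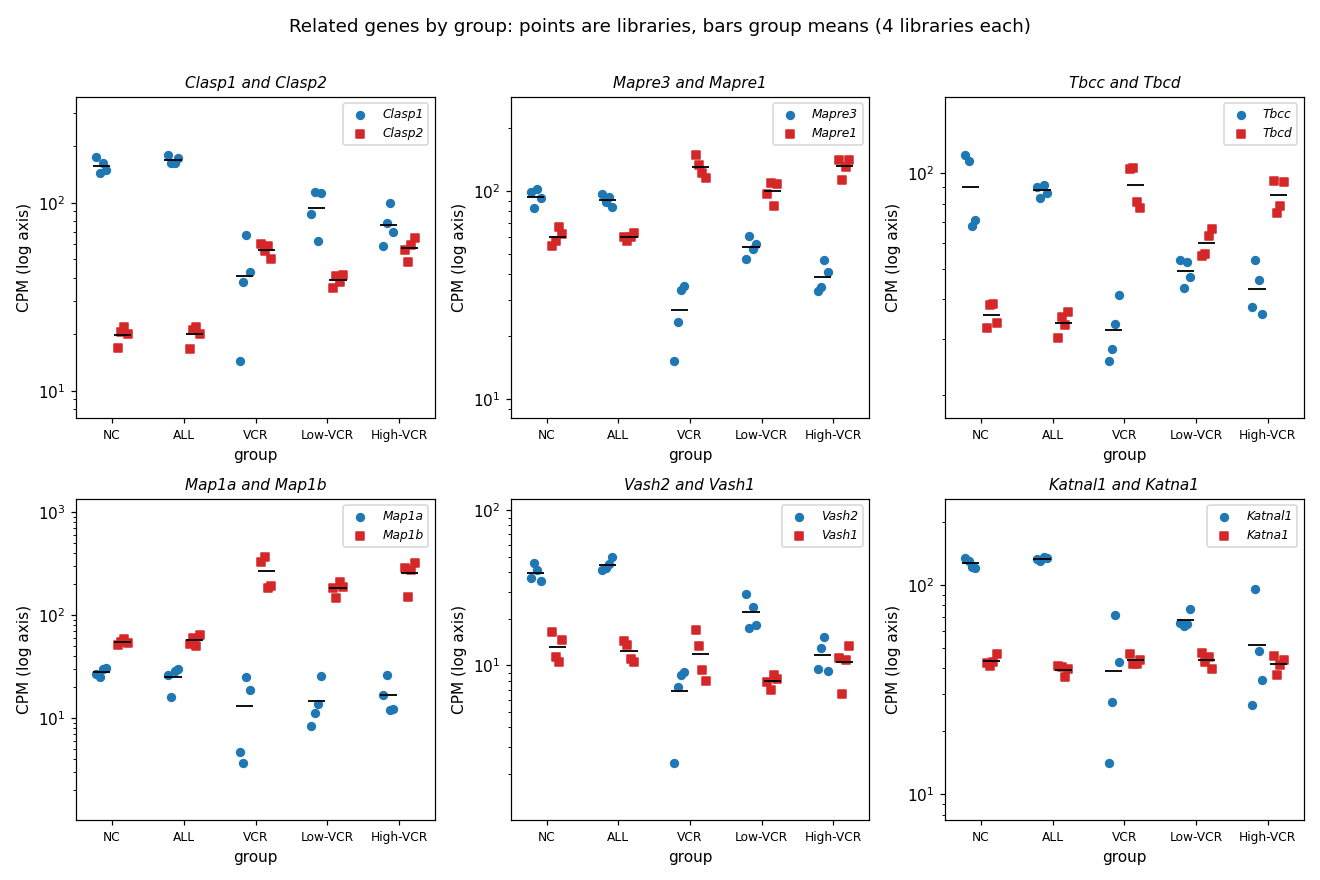
CPM (log axis) of 6 pairs of related genes in the 5 groups; points are libraries, 4 a group, and bars are group means. Levels of different genes are not comparable on this axis. Within their own rows of points, Clasp1, Mapre3 and Tbcc are lower and Clasp2, Mapre1 and Tbcd higher in all 12 treated libraries than in any of the 8 untreated ones.

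Of the proteins that bind along the lattice, Map1b, best known from growing axons, was at 51.4, 55.2, 59 and 54.2 CPM in NC and 52.7, 60.6, 50.6 and 64.1 CPM in ALL. It was at 326, 367, 183.9 and 189.8 CPM in VCR, 182.4, 147.5, 208 and 188.4 CPM in Low-VCR and 287, 151.2, 277 and 320 CPM in High-VCR. The lowest treated library, at 148 CPM, was above the highest untreated one, at 64.1. Map1b rose 4.86-fold in VCR (2.28 ± 0.24, adjusted p 2.88e-07), 3.19-fold in Low-VCR (1.67 ± 0.24, adjusted p 1.76e-05) and 4.54-fold in High-VCR (2.18 ± 0.24, adjusted p 5.34e-07). Map1a, its relative, was at 25.2 to 30.8 CPM in NC and at 4.72, 3.72, 25 and 18.7 CPM in VCR. Its call there (-1.11 ± 0.48, adjusted p 0.0442) was lost without any 1 of the NC libraries (adjusted p 0.0569 to 0.0783), without VCR 1 or 2 (0.116 and 0.119), without ALL 1, 3 or 4, Low-VCR 3 or High-VCR 1 (0.0512 to 0.0527), with only the groups compared (0.106), without the low-count filter (0.052) and with library size alone (0.145). The ratio of Map1b to Map1a counts was 1.76 to 2.19 in NC and 7.34 to 98.7 in VCR. Map1a overlaps Ppip5k1 on the opposite strand.

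Tppp2, a relative of the polymerisation-promoting protein Tppp that mouse sperm need for motility, was at 91.8, 83.2, 91.7 and 106.4 CPM in NC and 112.7, 94.2, 93.9 and 95.1 CPM in ALL. It was at 1.52, 15.9, 38.2 and 19.2 CPM in VCR, 55.4, 82.6, 44.6 and 74.8 CPM in Low-VCR and 31.7, 63.6, 67.3 and 47.1 CPM in High-VCR. VCR lay below NC and spread from 1.52 to 38.2 CPM, and Low-VCR and High-VCR lay below ALL without overlap. Tppp2 fell in VCR (-2.32 ± 0.52, adjusted p 0.000664; without VCR 3, -2.93, adjusted p 9.7e-05) and did not pass in Low-VCR (-0.62 ± 0.50, adjusted p 0.28) or High-VCR (-0.92 ± 0.50, adjusted p 0.105). Both falls were called with only the groups compared (adjusted p 0.0137 and 0.00125), with the library number range as a term (0.0487 and 0.00598) and without VCR 1 (0.0464 and 0.00439), and the High-VCR fall also with DESeq2 (0.0388). Map4, a broadly used lattice protein, was at 373, 411, 400 and 346 CPM in NC and 373, 398, 399 and 441 CPM in ALL. It was at 208, 275, 284 and 269 CPM in VCR, 277, 228, 320 and 302 CPM in Low-VCR and 309, 373, 293 and 274 CPM in High-VCR. The shifts were small, and High-VCR 2 lay level with the lowest ALL library. Map4 fell in VCR (-0.56 ± 0.15, adjusted p 0.00233), Low-VCR (-0.52 ± 0.15, adjusted p 0.00776) and High-VCR (-0.37 ± 0.15, adjusted p 0.0329), and all 3 calls were lost with library size alone (adjusted p 0.261, 0.142 and 0.599). The High-VCR call of Map4 was also lost without ALL 2, 3 or 4 (0.0529, 0.055 and 0.0867) or High-VCR 1, 3 or 4 (0.0649, 0.0794 and 0.102).

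Mapt, which encodes tau, fell in VCR (-0.90 ± 0.32, adjusted p 0.0181) from levels of 1.88 to 3.88 CPM in NC, with overlapping groups, and the call was lost without NC 3 (-0.74, adjusted p 0.0654), with only the groups compared (0.0826) and with library size alone (-0.51, adjusted p 0.156). Tppp was at 0.194 to 0.538 CPM in NC and 0.456 to 1.22 CPM in VCR, groups that overlapped. Its rise in VCR (1.08 ± 0.46, adjusted p 0.0416) was lost without NC 1, 3 or 4, VCR 1 or 4, or Low-VCR 2 (adjusted p 0.0542 to 0.126), with DESeq2 (0.116), with limma-voom (0.0921), with DESeq2 size factors (0.0687) and without the low-count filter (0.0582). In High-VCR it rose 2.78-fold (1.47 ± 0.46, adjusted p 0.00865). Tppp had 2 to 6 counts in the NC libraries and 3 or 4 in ALL. It passed the low-count filter only through treated libraries, which favoured a rise. Map7, which mouse spermatogenesis needs, was at 131.8 to 147.2 CPM in NC and 107.7 to 153.6 CPM in VCR and had -0.07 ± 0.14, adjusted p 0.648 in VCR.

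The stathmins sequester tubulin dimers. Stmn2, a gene of neurons, had 0, 2, 0 and 3 counts in the NC libraries and 15, 16, 11 and 15 in VCR. In CPM it was at 0, 0.215, 0 and 0.225 CPM in NC and 0.544, 0.506, 0.586 and 0.221 CPM in ALL. It was at 1.14, 1.22, 0.721 and 1.14 CPM in VCR, 1.17, 1.07, 0.656 and 0.871 CPM in Low-VCR and 0.882, 0.195, 0.854 and 0.502 CPM in High-VCR. VCR and NC did not overlap, but ALL and High-VCR did. Stmn2 rose in VCR (3.04 ± 0.61, adjusted p 0.00024; 3.70, adjusted p 0.000357 without NC 4), and did not pass in Low-VCR (1.0 ± 0.51, adjusted p 0.101) or High-VCR (0.37 ± 0.52, adjusted p 0.525). With 0 to 6 counts in each untreated library, Stmn2 passed the low-count filter only through treated libraries. That filter favoured a rise. Of 7 markers of nerve and Schwann cells, 3 rose and 3 fell in VCR. Their summed level was 140 to 267 CPM in the treated libraries, above the 104 to 124 CPM of the untreated ones, and its part in the rise of Stmn2 was not tested. Stmn1, the broadly expressed stathmin, was at 65.4 to 76.5 CPM in NC and 35 to 73.5 CPM in VCR and did not pass (-0.39 ± 0.21, adjusted p 0.0977). Stmn3 and Stmn4 had at most 11 counts summed over any group and were not tested.

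Engraftment without the drug moved none of the members past the threshold. In ALL relative to NC, 0 of 49 were called by edgeR's quasi-likelihood test, where 0% of all genes were, and 1, Stmn2, had an unadjusted p under 0.05 (1.89 ± 0.68, adjusted p 0.875). The members' log2 fold changes ran from -0.41 (Atat1) to 1.89 (Stmn2), with a median of -0.04. Over all genes, 748 had an unadjusted p under 0.05, DESeq2 called 19 and limma-voom called 1. With only the NC and ALL libraries fitted, 28 of all genes were called. The main fit shares its estimate of spread with the treated libraries. NC and ALL differ in the range of their library numbers as well, so engraftment and that range cannot be told apart.

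High and low leukaemia infiltration in treated mice differed for few members. In High-VCR relative to Low-VCR, 4 members were higher (8.16%, where 3.13% of all genes were) and 1 was lower (2.04%, where 4.69% were), with 7.81% of all genes called. Clasp2 (0.56 ± 0.11, adjusted p 0.0215), Ttl (0.94 ± 0.22, adjusted p 0.0246), Tbcd (0.50 ± 0.12, adjusted p 0.025) and Mapre1 (0.40 ± 0.11, adjusted p 0.042) were higher, with no overlap between the groups. Ttll3 was lower (-1.33 ± 0.36, adjusted p 0.0356), with overlapping groups. None of the 5 calls held with only the High-VCR and Low-VCR libraries fitted, and none was left without Low-VCR 1, without Low-VCR 3, without High-VCR 1 or without High-VCR 4. In each of those fits 0% of all genes were called, so the losses were not particular to the members. Without VCR 1, which is in neither group, 9 members were lower, where 9.86% of all genes were, and without High-VCR 2, 7 were higher, where 12.5% were. Without Low-VCR 2, 1 was higher (0.403% of all genes), and the lower members numbered 2 without VCR 3 or High-VCR 3 (5.26% and 4.89% of all genes), 3 without Low-VCR 2 or High-VCR 2 (5.47% and 6.83%) and 6 without Low-VCR 4 (7.15%). Called genes that were higher numbered 517 of 1292 with TMM and 289 of 1093 with upper-quartile scaling. Round spermatid markers were lower in the same comparison, 5 of 8 of them past the threshold, and 3 of 7 Leydig cell markers were higher.

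Engrafted mice with low infiltration and mice given the drug alone differed for more of the set. In Low-VCR relative to VCR, 18 members were higher (36.7%, where 16.7% of all genes were) and 4 were lower (8.16%, where 13.6% were), with 30.2% of all genes called. Vash2 (1.70 ± 0.29, adjusted p 0.00265), Mapre3 (1.01 ± 0.19, adjusted p 0.00339), Ttll9 (2.07 ± 0.46, adjusted p 0.00574) and Ttll8 (1.87 ± 0.42, adjusted p 0.00595) were higher. Tbcd (-0.60 ± 0.12, adjusted p 0.00415) and Clasp2 (-0.53 ± 0.11, adjusted p 0.00467) were lower, and so were Ttll12 and Mapre1. With only these groups fitted, none of the 22 calls held, and the adjusted p of Vash2, Mapre3, Tbcd and Clasp2 was 0.101. That fit called 0.00631% of all genes (1 gene). Without VCR 2, 11 members were higher, where 10.5% of all genes were, and without VCR 3 or High-VCR 2, 7 were lower, where 19.8% and 17.5% were. Called genes that were higher numbered 2757 of 5000 with TMM, 2515 of 6596 with library size alone and 2632 of 6784 with upper-quartile scaling. Of 8 round spermatid markers, 6 were higher in Low-VCR than in VCR, as were 6 of 8 of elongating spermatids, while 6 of 7 Leydig cell and 6 of 7 macrophage markers were lower. Their part in the differences of the members was not tested. In High-VCR relative to VCR, 0 members were called, where 0.00605% of all genes (1 gene) were. An unadjusted p under 0.05 was held by 6 of 49 members and by 1358 of all 16534 genes in edgeR's test, so the 6 are no result about the members. DESeq2 called 34 of all genes there. VCR and the engrafted groups also differ in the range of their library numbers, so engraftment and that range cannot be told apart.

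Whether the response to the drug differed with engraftment was tested by interactions, which subtract the change of VCR from NC from the change of each engrafted, treated group from ALL. In Low-VCR, 2 members passed, both with a smaller fall (4.08% of members, where 3.81% of all genes had a positive and 1.26% a negative interaction, 5.07% in all), a share near that of all genes. Vash2 differed by 1.52 ± 0.40, adjusted p 0.0425, from a change of -2.54 in VCR to -1.01 in Low-VCR. Mapre3 differed by 1.06 ± 0.27, adjusted p 0.041, from -1.81 to -0.75. Both calls were lost without any 1 of the NC or ALL libraries, without VCR 2 and without Low-VCR 1 or 3, where 0.0358% to 0.722% of all genes were positive. Positive calls numbered 8 without VCR 1, 12 without VCR 3 and 6 without Low-VCR 4, where 6.75%, 9.65% and 6.6% of all genes were positive. Members with a negative interaction numbered 2 without VCR 3 (4.31% of all genes) and 1 each without VCR 4, Low-VCR 4 or High-VCR 2 (2.02%, 1.86% and 2.62%). Called genes with a positive interaction numbered 630 of 839 with TMM, 319 of 513 with library size alone and 612 of 1004 with upper-quartile scaling. Ttll7, with the largest fall in VCR, had an interaction of 2.7 ± 0.81, adjusted p 0.0568. In High-VCR, 0 members passed, where 0.00605% of all genes did.

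**Figure D4:**
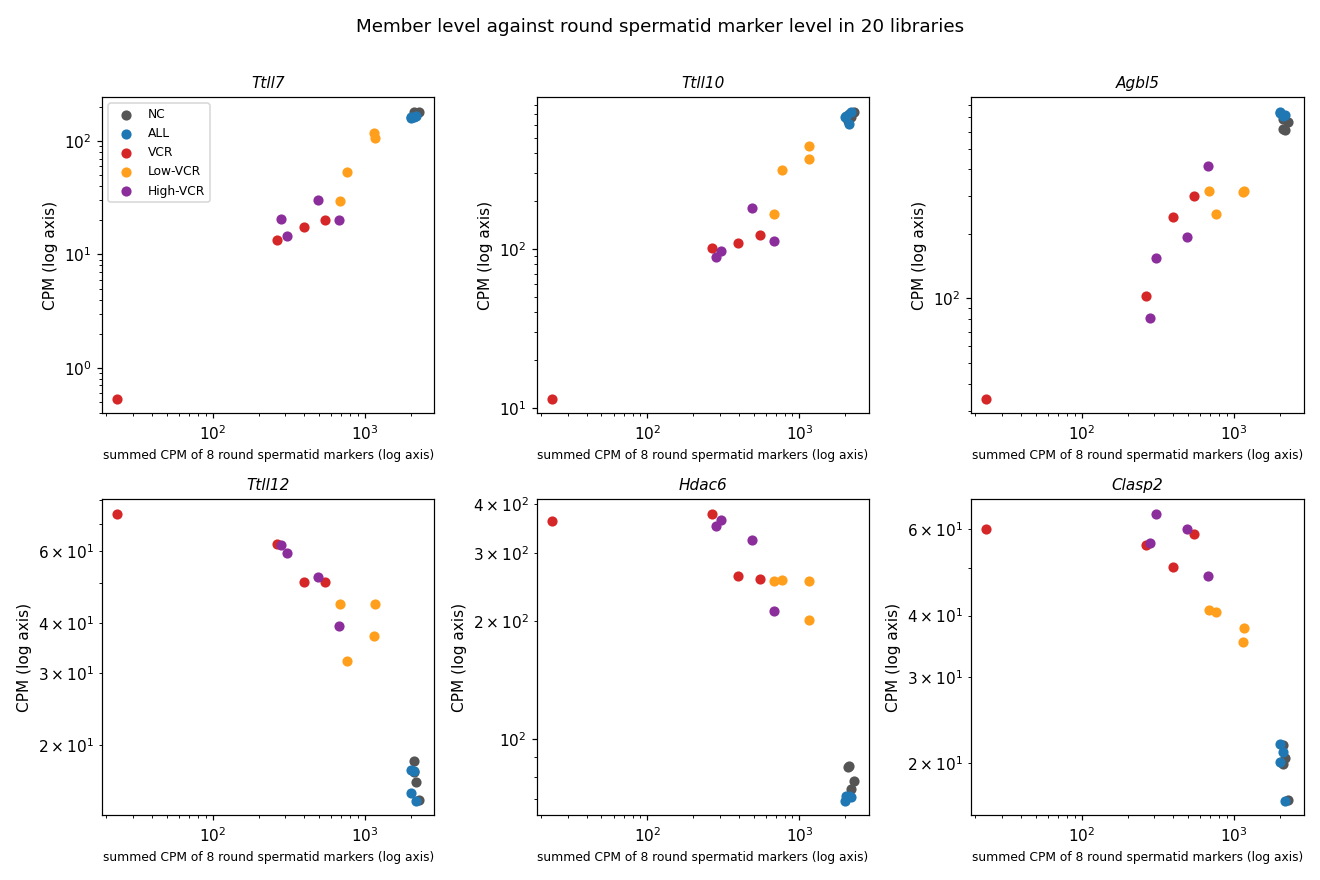
CPM of 6 members (y axes, log) against the summed CPM of 8 round spermatid markers (x axes, log) in the 20 libraries, coloured by group. The 6 are a selection of the tested members. Ttll7, Ttll10, Agbl5 and the markers are lower in every treated library than in any untreated one, and Ttll12, Hdac6 and Clasp2 are higher. VCR 1 is lowest in Ttll7, Ttll10, Agbl5 and the markers, at 23.6 CPM of markers. Among treated libraries Agbl5 does not follow the markers. High-VCR 2 holds 416 CPM of Agbl5 at 677 CPM of markers, and Low-VCR holds 248 to 317 CPM at 683 to 1160 CPM of markers. The untreated libraries cluster at one end.

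Other genes of the microtubule pathway were read in lists chosen by function, again with earlier results known. Shares of all genes beside their counts are 35.6% lower and 42.1% higher in VCR relative to NC. Of 12 partner subunits of these enzymes, 10 were listed and tested, and in VCR 9 fell (90%) and 1 rose (10%). Cep41, which brings the polyglutamylase TTLL6 into cilia, fell (-2.80 ± 0.35, adjusted p 2e-06), and Katnbl1, a katanin regulatory relative, rose (1.56 ± 0.23, adjusted p 1.13e-05). Of 15 genes of the CCT chaperonin and prefoldin, which fold tubulin before the cofactors act, 11 fell (73.3%) and 2 rose (13.3%), with a median of -0.81. Cct2 fell (-0.87 ± 0.12, adjusted p 4.41e-06), and Vbp1, a prefoldin subunit, rose (1.64 ± 0.29, adjusted p 6.17e-05). Of 26 other microtubule-associated proteins, 11 fell (42.3%) and 8 rose (30.8%), with a median of -0.01 beside 0.10 over all genes. Eml6 fell (-2.55 ± 0.29, adjusted p 5.37e-07) and Tacc2 rose (2.41 ± 0.23, adjusted p 9.31e-08). Against ALL, 5 of 10 partner subunits fell in each of Low-VCR and High-VCR, and chaperonin and prefoldin genes that fell numbered 3 of 15 in Low-VCR and 10 of 15 in High-VCR, where 15.2% and 30.5% of all genes fell.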

How the data were processed

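The authors deposited raw counts by gene symbol for 20 testis libraries, in 1 table of 22066 symbols with 0 further per-sample columns. The build GRCm39 and the tools STAR 2.7.10b, Trimmomatic 0.39, DESeq2 1.36.0, Subread 2.0.3 and featureCounts are named per the submitters' processing notes. Per the labels' protocols, libraries were directional and oligo-dT selected. The annotation, the strand setting of the counting and the handling of human reads are not given in the sources used here. Genes that overlap on opposite strands may therefore share reads.

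Groups came from the sample titles. Tests used edgeR 4.0.16 in R 4.3.3: TMM scaling, filterByExpr (minimum count 10), 1 robust quasi-likelihood fit of 5 group means over 20 libraries (15 residual degrees of freedom), and Benjamini-Hochberg adjustment over 16534 genes, with a threshold of 0.05. There were 7 pairwise comparisons and 2 interactions. Standard errors were derived from each log2 fold change and its F. The scripts were tested on simulated data. For VCR relative to NC they recovered 41 of 100 genes given an absolute log2 fold change of 1, and 87 of 100 given 2. A member that did not pass may therefore still have changed. The 30 alternatives were other scalings, other filters, DESeq2 1.42.0, limma-voom (limma 3.58.1), only the groups compared, the library number range as a term, the replicate number as a block and leaving out each of 20 libraries.

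The members, roles, lists and motifs were chosen with earlier results of these data known. Every library is given for 21 members: in each of 9 roles the called member with the smallest adjusted p in each direction in each drug comparison, and members called in the other comparisons, up to 6 each. In the context lists the called gene with the smallest adjusted p in each direction was named. Promoters came from a RefSeq table and exon overlaps from GENCODE M21, both on GRCm38; no genome of the counts' build was used. At these totals 3 counts were 0.167 to 0.365 CPM in a library, a floor that covers counting error only.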

Additional observations from a re-analysis of the deposited data

Results flagged for a closer look

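Of 245 groups of 4 libraries examined (49 members in 5 groups), 14 held a library whose gap to its nearest neighbour passed Dixon's 95% critical value, where chance flags about 5%, a count near that background. VCR 1 was the low library in 4 of them: Vash2 at 2.36 CPM, Ttll7 at 0.533, Ttll10 at 11.4 and Agbl1 at 0.305, where the other VCR libraries held 7.22 to 9.05, 13.5 to 20.1, 101 to 122 and 1.75 to 2.29 CPM. That library also had the lowest round spermatid marker level of the 20, at 23.6 CPM.

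In Low-VCR the separate libraries were Agtpbp1 in Low-VCR 3 (153 CPM), Agbl5 in Low-VCR 2 (248), Hdac6 in Low-VCR 1 (202) and Katnal1 in Low-VCR 4 (77.2). In High-VCR they were Ttl in High-VCR 1 (3.73 CPM), Ttll4 in High-VCR 2 (124) and Mapt in High-VCR 2 (2.14). The others were Stmn2 in VCR 3 (0.721 CPM) and in ALL 4 (0.221), and Tppp2 in ALL 1 (112.7).

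The fall of Vash2 and of Mapre3 differed between Low-VCR relative to ALL and VCR relative to NC, by 1.52 (adjusted p 0.0425) and 1.06 (adjusted p 0.041) on the log2 scale in edgeR's test of the interaction. They were 4.08% of the members, where 5.07% of all genes passed, so the count is no result about the members. Both calls were lost without any single NC or ALL library, where 0.0358% to 0.722% of all genes had a positive interaction.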

How the results depend on the processing

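No called member changed sign under the alternatives run for its comparison. These were 30 for the comparisons among ALL, Low-VCR and High-VCR and 29 for the others, where the library number range was not used as a term. Stmn2 and Tppp had values in 28 of them in VCR relative to NC, and Tppp in 29 in High-VCR relative to ALL. Of the values of called members, 3490 stayed past the threshold and 252 did not. Calls held under every alternative in which the member had a value for 33 of 41 members in VCR relative to NC, 13 of 22 in Low-VCR and 30 of 35 in High-VCR relative to ALL, and for none in the other comparisons. The 13 falls in Low-VCR became 22 with DESeq2 size factors, 6 with library size alone, 24 with DESeq2, 27 with only the groups compared and 24 with the library number range as a term (8 to 26 leaving out a library). The share of all genes that fell moved as well. It was 15.2% in the main fit and 27.4%, 5.26%, 22.7%, 30.3% and 22.5% in these settings (10.3% to 25.8% leaving out a library). Shares with DESeq2 are over all 22066 symbols. In High-VCR relative to Low-VCR, the 4 higher members became 0 with only the groups compared (0 to 7 leaving out a library). Of all genes, 0% were higher with only the groups compared (0% to 12.5% leaving out a library). The 1 lower member became 2 with DESeq2 size factors, upper-quartile scaling or no low-count filter, 5 with DESeq2, 0 with limma-voom or only the groups compared and 9 with the range term (0 to 9 leaving out a library). The shares of all genes that were lower in these settings were, in turn, 4.79%, 4.86%, 4.33%, 5.56%, 2.3%, 0% and 7.08% (0% to 9.86% leaving out a library). In Low-VCR relative to VCR, 18 higher members became 0 with only the groups compared (11 to 21 leaving out a library), and 4 lower members became 9 with library size alone or upper-quartile scaling and 0 with only the groups compared (3 to 7 leaving out a library). Of all genes, 0.00631% were higher with only the groups compared (10.5% to 22.2% leaving out a library). The lower share was 24.7% with library size alone, 25.1% with upper-quartile scaling and 0% with only the groups compared (4.31% to 19.8% leaving out a library). In the Low-VCR interaction, 2 positive calls became 1 with library size alone and 9 with DESeq2 (0 to 12 leaving out a library), and 0 negative calls became 1 with library size alone or upper-quartile scaling and 2 with DESeq2 (0 to 2). Of all genes, 1.93% were positive with library size alone and 5.55% with DESeq2 (0.0358% to 9.65% leaving out a library). The negative share was 1.17% with library size alone, 2.37% with upper-quartile scaling and 2.84% with DESeq2 (0.00597% to 4.31% leaving out a library). The cause was not tested. Scaling moved the median of all genes in VCR relative to NC by 0.39 (library size alone), 0.17 (upper quartile) and -0.12 (DESeq2 size factors). Replicate numbers gave no clear sign of pairing. Of 40 same-numbered pairs, 5 had a correlation of deviations over 0.1 (range -0.384 to 0.526, median -0.01), and 4 of 20 libraries correlated best with their own number. Such correlations cannot show that the samples were unpaired. With the replicate number as a block, 2 members were higher and 0 lower in High-VCR relative to Low-VCR, 0 passed in the Low-VCR interaction, and in VCR relative to NC 11 rose and 29 fell. Of all genes, 0.532% were higher and 1.25% lower, 0.0544% passed, and 41.6% rose and 35.7% fell, in the same order. Low counts limit Ttl, Stmn2, Mapt and Tppp.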

Other observations

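The 3 members that were not tested were present at trace level. Fign was at 0.0767 to 0.657 CPM over the 20 libraries. Stmn3 had 1 count over NC, 5 over ALL, 2 over VCR, 9 over Low-VCR and 5 over High-VCR, and Stmn4 had 4, 1, 1, 4 and 11. The ratio of summed counts per total in Low-VCR relative to VCR was 4.35 for Stmn3, with an exact 95% interval of 0.9 to 41.4 that covers counting error only. For Stmn4 in High-VCR relative to VCR, the ratio was 9.49 with an interval of 1.38 to 408, from 11 counts and 1. The intervals of the other such ratios of Stmn3 and Stmn4 all included 1.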
